A study of Saccharomyces cerevisiae with 15 samples.

Results

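Budding yeast (Saccharomyces cerevisiae) lacking GCN5 was compared with wild type (WT), both in sulfometuron methyl (SM), by RNA sequencing of 3 gcn5 libraries and 3 WT libraries. These 6 libraries were chosen by their labels out of 15 in the series, and all 6692 yeast features of the deposited count table were taken for them. The gcn5 strain, 7285, carries gcn5∆::kanMX4 and the WT strain is BY4741. The markers MATa, his3∆1, leu2∆, met15∆ and ura3∆ are common to every strain of the series. Both strains grew at 30 °C in synthetic complete medium without isoleucine and valine to an OD600 of 0.6 to 0.8 and then received SM at 1 µg/ml for 25 min. Other groups named are strain 4228 (spt3∆::kanMX4) and strain 2666 (spt8∆::kanMX4), 3 libraries each and both in SM, and BY4741 without SM, 3 libraries. No gcn5 library without SM was analysed here, so a difference present before SM and a difference in the response to SM cannot be told apart. Each deletion is 1 strain number in the labels, so the deletion and any other feature of that strain cannot be told apart either.

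Gcn5 is the catalytic subunit of the acetyltransferase module of SAGA, a coactivator that activators recruit to promoters, and of the smaller ADA complex. With its partners Ada2, Ngg1 (Ada3) and Sgf29 it acetylates the tail of histone H3 on nucleosomes near the start of genes. SM blocks acetolactate synthase in the pathway to isoleucine and valine, and the resulting starvation raises translation of the mRNA of Gcn4, the activator of amino acid synthesis genes that recruits SAGA among other cofactors.

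The gcn5 libraries held 24.8, 29.5 and 35.7 M yeast counts, against 35.8, 37.5 and 31.1 M in the WT libraries. Counts were scaled by synthetic ERCC RNAs added in a fixed amount per amount of total RNA, so scaled counts are levels per unit of total RNA and, being counts, are not compared between genes of different length. Library 3 stood apart from the other gcn5 libraries. Its yeast counts in M per spike-in factor were 43.2, against 30.5 and 29.6 in gcn5 libraries 1 and 2, and its chi-square per gene against these was 101 and 74.8, where other pairs of replicates in the series gave 10.1 to 35.6. Counts over all genes and over the lists below are therefore given with and without it. Differences also followed coding length and GC content, as the plot of gcn5 libraries by length and GC content shows. The median log2 fold change of gcn5 over WT was −0.34 for the shortest of 5 equal classes of genes and 0.04 for the longest, and 0.05 for the lowest GC class and −0.45 for the highest. The names of the gcn5 and spt8 libraries share 1 prefix, and those of the WT and spt3 libraries share another. The names do not say what the prefix stands for. A difference tied to the prefix cannot be told apart from the gcn5-WT difference, nor from the gcn5-spt3 difference. In bulk RNA, fewer cells of a kind and less RNA per cell cannot be told apart. The labels do not say whether replicates were separate cultures, so p-values measure the spread between these libraries, which may be technical. The sources used here do not say whether counting used strand, so for genes that overlap another annotated gene the reads of the pair cannot be told apart. Of the genes named below these are AFB1, SYO1, GPH1, ARG56, ARO9, MET2, PRM6, STE3, CAR2, PRO3, DAL80, COX2, RPL36A, RPL43A and YHL050W-A.

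**Figure D1:**
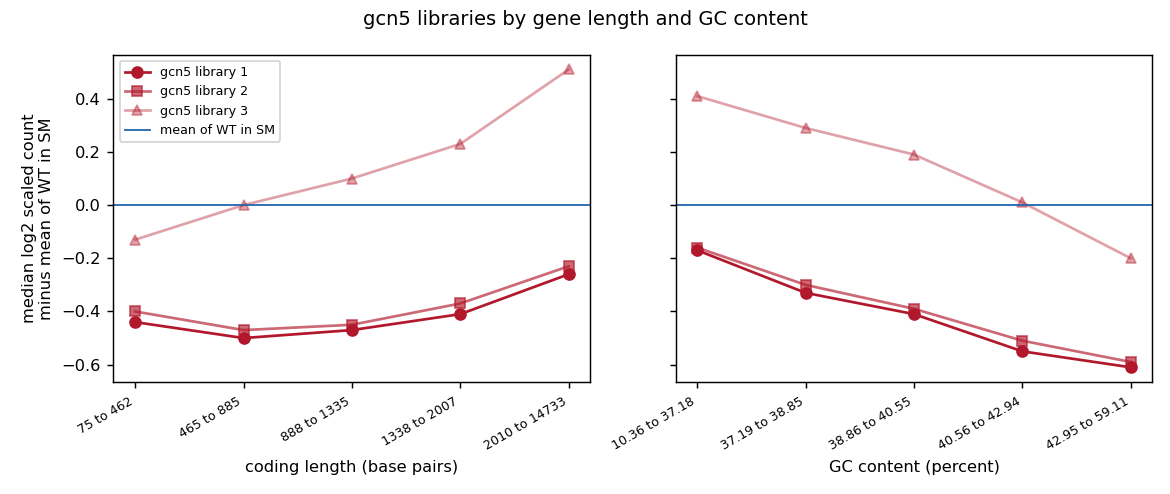
Median over genes of the log2 scaled count in each gcn5 library minus the mean of the WT libraries in SM (vertical axis), for 5 classes of genes by coding length in base pairs (left) and by GC content in percent (right). In the class of the longest genes library 3 lies at 0.51 and libraries 1 and 2 at −0.26 and −0.23, and all 3 libraries fall from low to high GC content.

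The deletion was seen in the counts. GCN5 (YGR252W, sacCer3 chromosome VII, 996869 to 998188, plus strand) had raw counts of 12, 29 and 18 in the gcn5 libraries. Its scaled counts were 15, 29 and 22 in gcn5, against 4214, 4727 and 3656 in WT, a log2 fold change of −7.56 ± 0.26 (SE; edgeR quasi-likelihood, Benjamini-Hochberg adjusted p = 3.27e-24). Every adjusted p below comes from that test unless another is named, and a gene is called where it is under 0.05. Of the genes beside it, NOP19, a pre-rRNA processing factor, had 669, 813 and 1205 in gcn5, against 664, 650 and 598 in WT, at 0.49 ± 0.19 (adjusted p = 0.0336, and 0.223 without gcn5 library 3; the call was also lost without any 1 WT library). The other, PUP2, a proteasome subunit gene, stood at −0.19 ± 0.18 (adjusted p = 0.416). Both strains carried the RNA of a cells: the 7 a-specific genes summed to 75558 to 110394 scaled counts in gcn5 and 155546 to 182738 in WT. The 6 alpha-specific and silent-cassette genes summed to 9292 to 12412 in gcn5 and 10249 to 12375 in WT. One of these, MF(ALPHA)1, which encodes the pheromone of the other mating type, made up little of that sum. It had 101, 124 and 196 in gcn5, against 75, 87 and 73 in WT.

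Most of the called genes were lower in gcn5. Of 6562 features with enough counts to test, 691 (10.5%) rose and 1993 (30.4%) fell in gcn5 relative to WT, and 3878 were not called. At 2-fold or more, 175 (2.67%) rose and 627 (9.56%) fell. The balance depends on the scale. TMM, a scaling that takes most genes as unchanged, shifted the median of all genes by 0.19, from −0.19 on the spike-in scale, and called 2241 genes (34.2%) higher and 2189 (33.4%) lower. Higher genes made up 25.7% of calls by spike-ins and 50.6% with TMM. All 691 higher calls and 1907 of the 1993 lower calls were made in the same direction by both scalings, and no gene was called in opposite directions. Without gcn5 library 3 the spike-in counts were 495 higher (7.53%) and 3438 lower (52.3%), and with the length and GC trends removed they were 674 higher (10.3%) and 2105 lower (32.1%). Without WT library 3, 443 were higher. Lists of genes are read against these shares, and list medians against the median of −0.19.

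The 10 largest rises and 10 largest falls among well-expressed genes called by both scalings are shown by library in the plot of largest differences. ASG7 (YJL170C, chromosome X, 101150 to 101779), an a-specific regulator of pheromone signalling, fell furthest. It had 287, 319 and 420 scaled counts in gcn5, against 3142, 4086 and 3283 in WT, and every gcn5 library was below every WT library (−3.36 ± 0.19, adjusted p = 1.38e-16). FMP46 (YKR049C), a mitochondrial protein gene, had 210, 209 and 419 in gcn5, against 2395, 2526 and 2219 in WT (−3.09 ± 0.21, adjusted p = 2.93e-14). AFB1 (YLR040C), had 653, 699 and 628 in gcn5, against 5682, 5742 and 5254 in WT. For both of these genes every gcn5 library was below every WT library. YEA4 (YEL004W), which encodes a UDP-N-acetylglucosamine transporter, had 310, 356 and 388 in gcn5, against 2577, 2938 and 2258 in WT (−2.88 ± 0.19). VAB2, its divergent neighbour on chromosome V, named after its values were seen, had 577, 619 and 1027 in gcn5, against 3538, 3772 and 2991 in WT (−2.21 ± 0.20). COX26, of cytochrome c oxidase (−2.87 ± 0.20), GSY1, glycogen synthase (−2.75 ± 0.21), FAR1, which halts the cell cycle in response to pheromone (−2.70 ± 0.21), CWP1, a cell wall mannoprotein (−2.58 ± 0.18), PHO3, an acid phosphatase (−2.50 ± 0.18), and RGM1, a zinc finger repressor (−2.36 ± 0.19), completed the 10 largest falls.

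The rises were smaller. COS12 (YGL263W, chromosome VII, 2790 to 3932), a subtelomeric gene of the DUP family, had 879, 763 and 1106 scaled counts in gcn5, against 178, 218 and 199 in WT (2.21 ± 0.20, adjusted p = 2.45e-11). SYO1, whose product escorts ribosomal proteins into the nucleus, had 4177, 4105 and 6786 in gcn5, against 1588, 1410 and 1137 in WT (1.87 ± 0.20). ERG25, a sterol C-4 methyl oxidase of ergosterol synthesis, had 31677, 29839 and 46122 in gcn5, against 10880, 10396 and 10166 in WT (1.78 ± 0.18). All gcn5 libraries exceeded all WT libraries for these 3 genes, with library 3 the highest. TIR3, a cell wall mannoprotein gene of anaerobic growth, had library 3 as its lowest, with 12721, 11291 and 10114 in gcn5, against 3445, 3419 and 3074 in WT (1.78 ± 0.18). FRM2, of a nitroreductase family (1.84 ± 0.19), LTV1, a 40S export factor (1.76 ± 0.22), PLS1 (1.72 ± 0.19), PDR18, a membrane transporter (1.70 ± 0.18), DAN1, another anaerobic mannoprotein (1.66 ± 0.20), and YAT1, a carnitine acetyltransferase (1.65 ± 0.22), made up the rest. Without library 3 COS12 stood at 2.05, SYO1 at 1.59, ERG25 at 1.55 and TIR3 at 1.86.

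**Figure D2:**
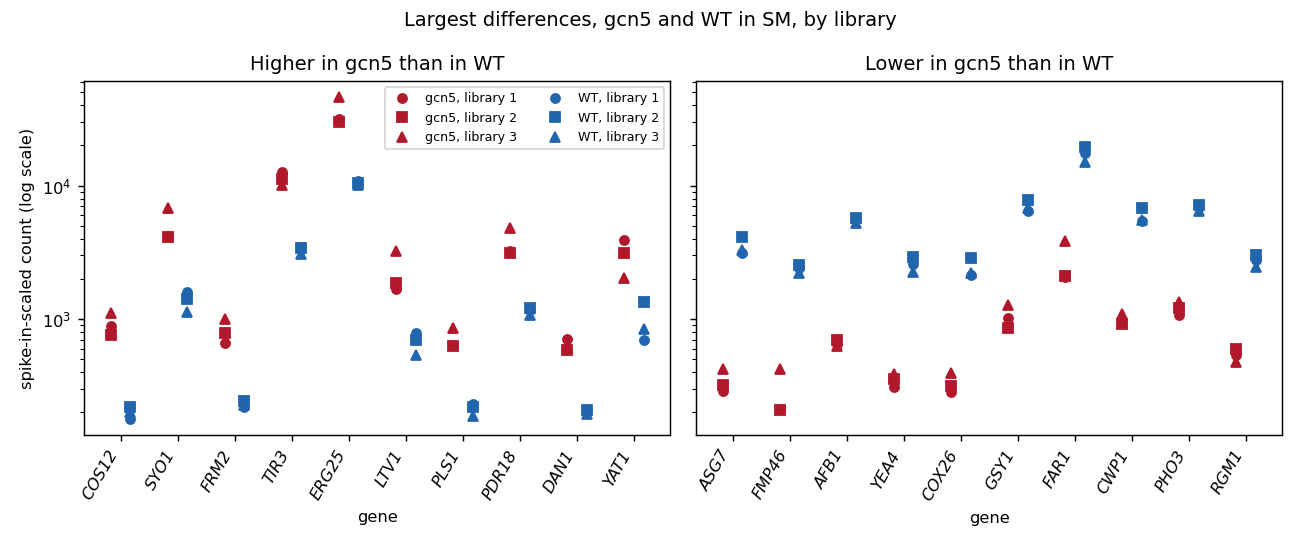
Spike-in-scaled counts (log axis) of the 10 genes with the largest rises (left) and falls (right) in gcn5 relative to WT, both in SM. Each symbol is 1 library, gcn5 left of WT for each gene, and the symbols of the groups do not overlap for any of these genes, as the rule that chose them required.

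Genes that define an a cell fell. Of 7 a-specific genes 6 fell and 0 rose, with a median of −1.23, which is 1.05 under the median of all genes. With TMM 6 fell and 0 rose, and without library 3 all 7 fell. BAR1 (YIL015W), the protease that degrades alpha factor, had 6221, 6168 and 10121 scaled counts in gcn5, against 27201, 30263 and 26098 in WT (−1.89 ± 0.19, adjusted p = 2.68e-10). MFA1, for the precursor of a-factor, had 2114, 2200 and 2933 in gcn5, against 8685, 8880 and 8206 in WT (−1.83 ± 0.18). Its partner gene MFA2, for the same pheromone, had 11236, 10099 and 12930 in gcn5, against 14527, 14852 and 14028 in WT, and the difference of −0.34 ± 0.17 missed the threshold (adjusted p = 0.112). AGA2, a subunit of a-agglutinin, stood at −1.23 ± 0.18, the a-factor exporter STE6 at −1.01 ± 0.19, and the alpha-factor receptor STE2 at −0.62 ± 0.16. In all 7 genes the gcn5 libraries lay below the WT libraries, where groups did not overlap for 41.1% of all features. Of 6 alpha-specific and silent-cassette genes 3 fell and 1 rose by spike-ins, 2 fell and 2 rose with TMM, and 3 fell and 0 rose without library 3. STE3, the a-factor receptor, stood at −0.80 ± 0.17 and MF(ALPHA)1 at 0.84 ± 0.24, the second with adjusted p = 0.0581 without library 3.

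Pheromone-response genes of either haploid type were lower as a group. Of 25 members 15 fell and 0 rose by spike-ins (median −0.68), and 15 fell and 5 rose with TMM (median −0.51). Without library 3, 18 fell and 0 rose. FAR1 had 2071, 2108 and 3848 scaled counts in gcn5, against 17507, 19502 and 15035 in WT. FUS1 (YCL027W), a membrane protein of cell fusion, had 1809, 1882 and 3126 in gcn5, against 7796, 8568 and 6650 in WT (−1.76 ± 0.20, adjusted p = 8.84e-09). PRM1, which acts in membrane fusion, had 1003, 1107 and 1547 in gcn5, against 3179, 4033 and 3300 in WT (−1.52 ± 0.19). These gcn5 libraries all lay below the WT libraries. PRM6, at 7, 6 and 10 in gcn5 against 15, 49 and 20 in WT, rests on few reads (−1.85 ± 0.48, adjusted p = 0.00203, and 0.0813 without WT library 2). STE4 and GPA1, for subunits of the pheromone receptor's G protein and named after their values were seen, stood at −1.25 ± 0.18 and −1.11 ± 0.20.

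The letters TGAAACA, known as the core of the element bound by the pheromone-response factor Ste12, were searched on both strands of the 300 bases before each start codon in the R64 genome, the build of the count table. They occurred in 7.23% of 5985 such windows, in 5 of 7 a-specific genes and in 13 of 25 pheromone-response genes. The windows of ASG7, MFA1 and FAR1, among the furthest fallen, do not hold these letters. A pair that does is shown, chosen from genes with a match, with the letters in capitals in either orientation.
BAR1 (chrIX:322042-322341, plus strand): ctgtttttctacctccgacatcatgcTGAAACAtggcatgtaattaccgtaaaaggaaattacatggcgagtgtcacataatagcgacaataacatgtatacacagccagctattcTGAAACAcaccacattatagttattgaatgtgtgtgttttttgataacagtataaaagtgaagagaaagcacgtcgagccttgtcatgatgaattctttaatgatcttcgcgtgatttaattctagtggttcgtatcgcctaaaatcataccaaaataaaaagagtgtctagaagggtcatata
FUS1 (chrIII:71503-71802, plus strand): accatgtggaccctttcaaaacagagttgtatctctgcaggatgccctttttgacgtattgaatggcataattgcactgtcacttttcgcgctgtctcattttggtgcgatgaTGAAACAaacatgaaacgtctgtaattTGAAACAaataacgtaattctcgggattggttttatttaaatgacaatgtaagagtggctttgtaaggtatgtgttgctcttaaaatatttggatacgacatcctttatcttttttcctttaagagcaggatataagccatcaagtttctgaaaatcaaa
Matches start 274 and 184 bases before the start codon of BAR1, and 187 and 160 bases before that of FUS1. A match is a description of letters and says nothing of binding.

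Genes for making ribosomes rose while the genes of ribosomal proteins fell. Of 59 ribosome biogenesis genes, which act in rRNA processing and subunit assembly, 46 rose and 0 fell, with a median of 0.87, which is 1.05 above that of all genes. With TMM 56 rose and 0 fell, without library 3 42 rose and 2 fell, and with the length and GC trends removed 42 rose and 1 fell. LTV1 (YKL143W) had 1691, 1870 and 3256 scaled counts in gcn5, against 782, 694 and 540 in WT (1.76 ± 0.22, adjusted p = 4.19e-08). ENP2, of the small-subunit processome, had 2620, 2853 and 4728 in gcn5, against 1412, 1334 and 1095 in WT (1.41 ± 0.20). NOP14, of the same particle, had 4299, 4781 and 8037 in gcn5, against 2410, 2449 and 1680 in WT (1.39 ± 0.22). Library 3 was the highest for each, and libraries 1 and 2 also lay above every WT library. Of 19 subunit genes of RNA polymerases I and III, the enzymes that transcribe rRNA and tRNA, 11 rose and 1 fell by spike-ins, 15 rose and 0 fell with TMM, and 7 rose and 3 fell without library 3. RPA34 of polymerase I had 3653, 3421 and 5272 in gcn5, against 1710, 1822 and 1285 in WT (1.36 ± 0.19). RPC25 of polymerase III stood at 0.97 ± 0.18. It lies head to head with LTV1, and both rose.

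Biogenesis genes were long, with a median coding length of 1722 base pairs. The longest class of genes had the median of 0.04 given above, and the part of length in the list's rise was not tested beyond the fit with the trend removed. That fit left the list's median at 0.73. In that fit LTV1 stood at 1.72 and NOP14 at 1.02.

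The letters GATGAG, the core of the PAC element known from rRNA processing genes, were searched in the same way after the rises had been seen. They occurred in 19.1% of all windows, in 54 of 59 biogenesis genes (91.5%), in 44.1% of windows of genes called higher and in 14.4% of those called lower. LTV1 is shown for its place among the 10 largest rises, and its window spans the interval to RPC25.
LTV1 (chrXI:176481-176780, plus strand): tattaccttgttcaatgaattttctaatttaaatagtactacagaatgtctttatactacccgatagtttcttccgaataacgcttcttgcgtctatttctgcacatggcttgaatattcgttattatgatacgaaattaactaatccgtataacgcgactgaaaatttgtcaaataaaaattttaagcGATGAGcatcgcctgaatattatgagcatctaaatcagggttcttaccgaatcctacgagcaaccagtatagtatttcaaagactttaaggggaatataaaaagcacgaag
The match starts 111 bases before the start codon.

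Of 137 cytosolic ribosomal protein genes 76 fell and 0 rose by spike-ins (median −0.41), and 84 fell and 4 rose with TMM (median −0.21). Without library 3, 110 fell and 0 rose, where 52.3% of all genes fell. The list is spread widely, from −2.21 to 0.21. RPL43A had 501, 709 and 857 scaled counts in gcn5, against 3151, 3255 and 3175 in WT (−2.21 ± 0.19, adjusted p = 7.56e-12). Its near-identical copy RPL43B had 6347, 6655 and 7487 in gcn5, against 9674, 10486 and 9998 in WT (−0.56 ± 0.17). RPL36A stood at −1.70 ± 0.18, RPS28A at −1.48 ± 0.18 and RPS28B at −1.46 ± 0.18. The sources used here do not say how reads shared between such copies were counted, so the split within a pair is uncertain. Ribosomal protein genes are short, with a median of 432 base pairs, where the shortest class of genes had a median of −0.34. With the length and GC trends removed, 59 fell and 2 rose, where 32.1% of all genes fell. The list's median in that fit was −0.30, close to the −0.22 of all genes, and RPL43A stood at −2.17.

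Stress and carbohydrate storage genes fell together. Of 26 targets of the stress activators Msn2 and Msn4, 23 fell and 1 rose, with a median of −1.22, which is 1.03 under that of all genes. With TMM 22 fell and 1 rose, and with the length and GC trends removed 21 fell and 1 rose. Without library 3, 24 fell and 0 rose. SOL4 (YGR248W), for a 6-phosphogluconolactonase, had 359, 361 and 626 scaled counts in gcn5, against 1876, 2239 and 1820 in WT (−2.14 ± 0.22, adjusted p = 7.21e-10). TFS1, an inhibitor of carboxypeptidase Y, had 1894, 1961 and 3451 in gcn5, against 9269, 11060 and 9187 in WT (−2.01 ± 0.20). GPH1, glycogen phosphorylase, had 7251, 6564 and 12212 in gcn5, against 29167, 37584 and 28195 in WT (−1.87 ± 0.20). Each gcn5 library lay below each WT library in these genes. PGM2, phosphoglucomutase, stood at −1.58 ± 0.20. The member that rose, HSP26, a small heat shock protein, had 6445, 4474 and 12071 in gcn5, against 4135, 5431 and 3977 in WT. Its groups overlap, and its 0.76 ± 0.22 became 0.27 without library 3 (adjusted p = 0.121).

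AGGGG, the core of the element bound by Msn2 and Msn4, occurred in 22.2% of all windows, in 20 of 26 list members (76.9%), in 31.8% of windows of genes called lower and in 12.3% of those called higher. SOL4, the list member that fell furthest, is shown with these letters in capitals in either orientation.
SOL4 (chrVII:985672-985971, plus strand): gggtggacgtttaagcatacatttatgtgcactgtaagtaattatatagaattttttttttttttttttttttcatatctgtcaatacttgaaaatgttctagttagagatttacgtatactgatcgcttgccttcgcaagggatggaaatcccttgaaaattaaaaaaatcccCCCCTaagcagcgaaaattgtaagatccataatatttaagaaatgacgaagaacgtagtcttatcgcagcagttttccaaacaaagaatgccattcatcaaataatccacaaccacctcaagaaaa
The match starts 126 bases before the start codon. The letters TATAAA occurred in 56.4% of windows of genes lower by 2-fold or more, in 51.5% of those higher by 2-fold or more and in 48.2% of all windows.

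Respiration and the use of carbon sources other than glucose moved unevenly. Of 17 citrate cycle genes 11 fell and 1 rose by spike-ins, 13 fell and 2 rose with TMM, and 15 fell and 1 rose without library 3. Of 27 nuclear genes of the respiratory chain 12 fell and 0 rose by spike-ins, 14 fell and 2 rose with TMM, and 21 fell and 0 rose without library 3. With the length and GC trends removed 8 of the 27 fell and 0 rose, where 32.1% of all genes fell. The list's median in that fit was −0.20, near the −0.22 of all genes. For the citrate cycle genes 10 fell and 2 rose in that fit, with a median of −0.47. SDH1, of succinate dehydrogenase, had 3182, 3129 and 3344 scaled counts in gcn5, against 6586, 7639 and 6270 in WT (−1.09 ± 0.17). NDE1, an external NADH dehydrogenase, had 3816, 3785 and 4788 in gcn5, against 10984, 11736 and 9621 in WT (−1.38 ± 0.18). COX26, named above, had 282, 312 and 392 in gcn5, against 2132, 2863 and 2212 in WT. For these 3 genes the groups did not overlap and library 3 was close to the other gcn5 libraries. Of 9 genes of gluconeogenesis and the glyoxylate cycle 5 fell and 2 rose with either scaling. Without library 3, 6 fell and 2 rose, and with the length and GC trends removed 3 fell and 2 rose. Malate synthase MLS1 stood at −1.96 ± 0.25, whereas CAT8, for an activator of this gene group, had 2847, 3006 and 6201 in gcn5, against 2054, 2318 and 1708 in WT (0.99 ± 0.22, and 0.57 with the length and GC trends removed). Among 14 hexose transporters and sensors 3 rose and 4 fell by spike-ins (median −0.19), 6 rose and 4 fell with TMM (median 0.02), and 3 rose and 5 fell without library 3. HXT2, a high-affinity glucose transporter, had 2213, 1847 and 2540 in gcn5, against 769, 1014 and 857 in WT (1.32 ± 0.19). HXT5 stood at −1.30 ± 0.23 and HXT7 at −1.21 ± 0.19. The near-identical copy of HXT7 stood at 0.30 and was not called, so the split within that pair is uncertain. Of 8 mitochondrially encoded protein genes 4 rose and 1 fell by spike-ins, 7 rose and 1 fell with TMM, and 3 rose and 1 fell without library 3. With the length and GC trends removed 0 rose and 3 fell. COX2 of this list stood at 0.73 ± 0.18 by spike-ins and at 0.31 in that fit.

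**Figure D3:**
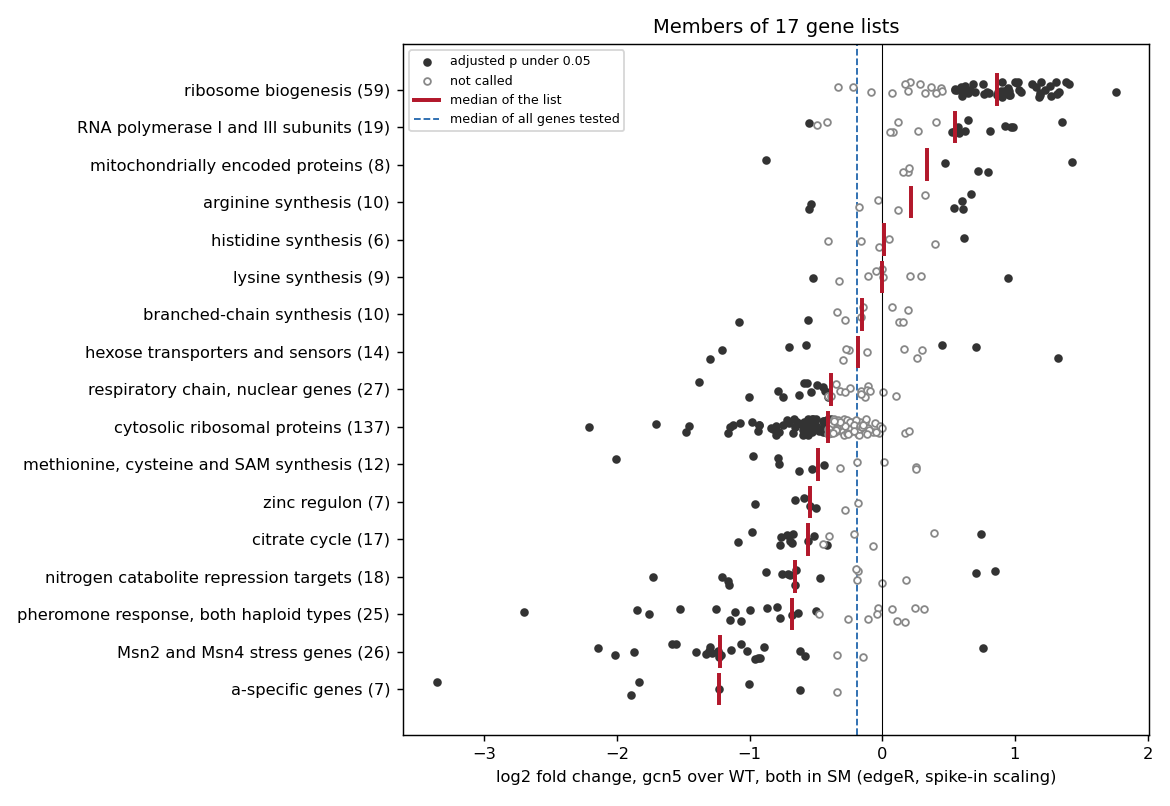
Log2 fold change of gcn5 over WT, both in SM (horizontal axis, edgeR with spike-in scaling), for each tested member of 17 gene lists, with the number of members in parentheses. Filled points are called, open points are not, the red bar is the list's median and the dashed line is the median of all genes at −0.19. Ribosome biogenesis lies to the right, with a median of 0.87, and the a-specific and stress lists lie to the left, with medians of −1.23 and −1.22.

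The plot of amino acid genes sets gcn5 and WT in SM beside WT without SM. The mRNA of Gcn4 itself was not called different by spike-ins. GCN4 (YEL009C) had 34976, 31471 and 44885 scaled counts in gcn5, against 29063, 31490 and 25918 in WT, and 1 gcn5 library lay within the WT range. The difference was 0.36 ± 0.16 (adjusted p = 0.0701), and it was called with TMM (0.57, adjusted p = 2.53e-07) and without gcn5 library 2 (0.47). Its protein was not measured. Among genes that act on Gcn4 synthesis or stability, YIH1, an inhibitor of Gcn2 activation, fell furthest. It had 281, 305 and 311 in gcn5, against 985, 1004 and 1017 in WT (−1.74 ± 0.18, adjusted p = 4.33e-10). GCN2, the kinase that senses uncharged tRNA, stood at 0.59 ± 0.21 (adjusted p = 0.0235), but at 0.20 without library 3 (adjusted p = 0.299) and at 0.07 with the length and GC trends removed.

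Within the arginine pathway, genes moved in both directions. Of 10 members 4 rose and 2 fell by spike-ins (median 0.22), and 7 rose and 2 fell with TMM (median 0.42). Without library 3, 4 rose and 2 fell, and with the length and GC trends removed 5 rose and 1 fell. CPA1, the small subunit of carbamoyl phosphate synthetase, had 50205, 45891 and 69313 scaled counts in gcn5, against 36069, 37432 and 30525 in WT (0.67 ± 0.17, adjusted p = 0.00202). ARG56, acetylglutamate kinase and reductase, had 67650, 66077 and 94036 in gcn5, against 50199, 52924 and 46077 in WT (0.61 ± 0.16, adjusted p = 0.00266). ARG3, ornithine transcarbamylase, had 30565, 28989 and 39815 in gcn5, against 22167, 22914 and 20340 in WT (0.60 ± 0.17, adjusted p = 0.00441). In these genes every gcn5 library was above every WT library. ARG8 rose by 0.54 ± 0.18 (adjusted p = 0.0142), a call lost without WT library 1 or WT library 3. ARG4, argininosuccinate lyase and the last step of the pathway, had 29134, 31433 and 42818 in gcn5, against 50276, 53399 and 47720 in WT (−0.55 ± 0.16, adjusted p = 0.00529, and 0.0533 without gcn5 library 1). ORT1, the mitochondrial ornithine carrier, stood at −0.54 ± 0.18 (adjusted p = 0.0147), a call lost without gcn5 library 1, gcn5 library 2 or WT library 2. ARG1, of the step before ARG4, had 67017, 65202 and 88654 in gcn5, against 58635, 61942 and 56485 in WT, and its 0.32 ± 0.16 was not called (adjusted p = 0.0969), though with TMM it was (adjusted p = 1.01e-05). In WT without SM the means were 506.8 ± 71.9 for ARG3 and 6602 ± 252 for ARG4 (SD, n = 3), below every library of either strain in SM.

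TGACTCA, the core site of Gcn4, occurred in 2.62% of all windows and in 5 of 10 arginine genes. It was present in ARG56 and ARG8, which rose, in ARG4 and ORT1, which fell, and in ARG7, which was not called (−0.17 ± 0.17). It was not found in the windows of CPA1 and ARG3. ARG56 and ARG4 are shown because both hold the site and moved in opposite directions.
ARG56 (chrV:295110-295409, plus strand): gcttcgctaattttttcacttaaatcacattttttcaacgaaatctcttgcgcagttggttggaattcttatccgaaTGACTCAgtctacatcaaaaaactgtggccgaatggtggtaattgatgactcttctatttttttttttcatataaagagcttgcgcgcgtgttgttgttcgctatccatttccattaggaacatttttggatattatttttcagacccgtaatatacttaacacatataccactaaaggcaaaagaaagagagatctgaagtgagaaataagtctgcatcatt
ARG4 (chrVIII:141403-141702, minus strand): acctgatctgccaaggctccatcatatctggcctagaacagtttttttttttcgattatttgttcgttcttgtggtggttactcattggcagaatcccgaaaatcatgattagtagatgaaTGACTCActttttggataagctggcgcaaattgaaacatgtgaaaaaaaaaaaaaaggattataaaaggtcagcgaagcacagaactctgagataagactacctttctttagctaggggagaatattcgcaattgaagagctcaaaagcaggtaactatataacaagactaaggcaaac
The match starts 223 bases before the start codon of ARG56 and 179 bases before that of ARG4.

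**Figure D4:**
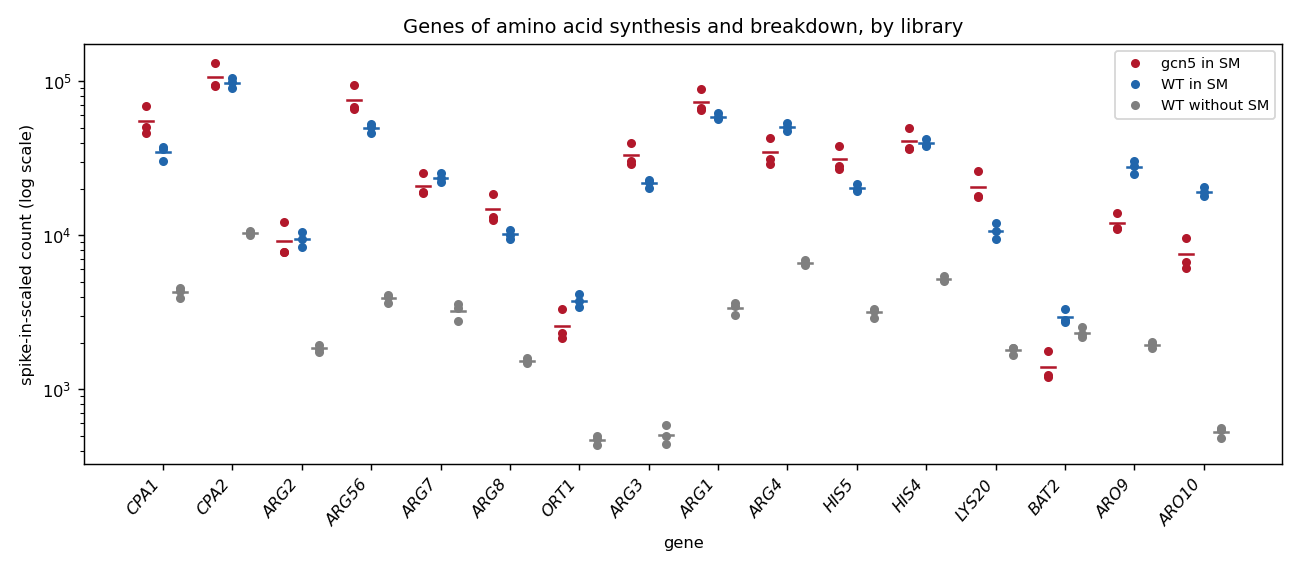
Spike-in-scaled counts (log axis) of 16 genes of amino acid synthesis and breakdown in gcn5 in SM, WT in SM and WT without SM, 3 libraries each, with bars at the means. ARG3 and LYS20 lie higher in gcn5 than in WT, ARG4, ARO9 and ARO10 lie lower, and all of these are higher in both strains in SM than in WT without SM.

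Other amino acid pathways differed in how many of their genes moved. LYS20, homocitrate synthase, had 17765, 18006 and 26108 scaled counts in gcn5, against 11954, 10630 and 9502 in WT (0.95 ± 0.18, adjusted p = 5.43e-05), and it was the member of its list of 9 that rose. LYS5 of that list was called at −0.52, a call lost without gcn5 library 1, gcn5 library 2 or WT library 2, and with TMM 5 of the 9 rose and 1 fell, and without library 3 1 rose and 3 fell. HIS5 rose by 0.61 ± 0.17, while HIS4 stood at 0.05 ± 0.16 (adjusted p = 0.829), and with TMM 4 of 6 histidine genes rose and 1 fell. Without library 3, 1 rose and 2 fell. Of 10 branched-chain genes 0 rose and 2 fell by spike-ins (median −0.15), 4 rose and 2 fell with TMM (median 0.08), and 0 rose and 4 fell without library 3. BAT2, the cytosolic branched-chain aminotransferase, had 1236, 1196 and 1776 in gcn5, against 2810, 3336 and 2753 in WT (−1.08 ± 0.18). ARO10 and ARO9, which break down aromatic amino acids, fell. ARO10 had 6164, 6682 and 9665 in gcn5, against 17863, 20595 and 19022 in WT (−1.35 ± 0.19), and ARO9 stood at −1.21 ± 0.17. ARO80, which encodes their activator, stood at −0.08 (adjusted p = 0.775). MET2, homoserine acetyltransferase, had 231, 217 and 298 in gcn5, against 1003, 1076 and 918 in WT (−2.01 ± 0.19, adjusted p = 6.59e-11). Of its list of 12 methionine, cysteine and S-adenosylmethionine genes 7 fell and 0 rose by spike-ins, 8 fell and 3 rose with TMM, and 8 fell and 0 rose without library 3.

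Of 18 targets of nitrogen catabolite repression 11 fell and 2 rose (median −0.65), with TMM 11 fell and 4 rose, and without library 3 13 fell and 2 rose. MEP1, an ammonium permease, had 341, 350 and 367 scaled counts in gcn5, against 1087, 1261 and 1166 in WT (−1.73 ± 0.17, adjusted p = 4.01e-10). CAR2, ornithine transaminase, stood at −1.21 ± 0.19 and DAL80, a GATA repressor, at −1.16 ± 0.25. Of 18 amino acid permease genes 7 fell and 0 rose by spike-ins, 8 fell and 3 rose with TMM, and 11 fell and 0 rose without library 3. The permease counts by spike-ins lie near the shares of all genes, 30.4% lower with library 3 and 52.3% without it, and with TMM and without library 3 4 rose and 4 fell. ALP1, an arginine transporter, stood at −1.41 ± 0.18, the general permease GAP1 at −1.08 ± 0.18 and the methionine permease MUP3 at −1.04 ± 0.18. Of 9 genes for the synthesis of glutamate, glutamine, asparagine and proline 3 fell and 0 rose by spike-ins, near the 30.4% of all genes. The list's median was −0.24, close to the −0.19 of all genes. With TMM 3 fell and 2 rose, and without library 3 7 fell and 0 rose. The 3 that fell by spike-ins were GDH3 at −1.26 ± 0.21, GDH1 at −1.11 ± 0.17 and PRO3 at −0.91 ± 0.16.

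Among the partners of Gcn5, ADA2 had 1744, 1867 and 3094 scaled counts in gcn5, against 3337, 3335 and 2693 in WT. Library 3 fell inside the WT range, and the difference was −0.48 ± 0.19 (adjusted p = 0.0383), a call lost when gcn5 library 1 or 2 or WT library 1 or 2 was left out. NGG1 (0.33 ± 0.20) and SGF29 (−0.14 ± 0.18) were not called by spike-ins. In the SAGA core 2 of 11 genes fell and 0 rose by spike-ins, with TMM 2 fell and 7 rose, and without library 3 4 fell and 0 rose. TAF9 had 1869, 1958 and 3077 in gcn5, against 3779, 4254 and 3683 in WT (−0.76 ± 0.18, and −0.35 with adjusted p = 0.106 when the length and GC trends were removed). TAF5 had 1659, 1926 and 3033 in gcn5, against 3604, 4054 and 3279 in WT (−0.72 ± 0.19). Both encode proteins that SAGA shares with the general factor TFIID. SPT3 and SPT8, the genes deleted in the other strains, stood at 0.15 ± 0.19 and −0.38 ± 0.18 and were not called. Of 11 histone genes 1 fell and 1 rose by spike-ins, 1 fell and 3 rose with TMM, and 2 fell and 0 rose without library 3. The linker histone HHO1 stood at −1.01 ± 0.19, and the centromeric variant CSE4 at 0.62, a call lost without gcn5 library 3 or WT library 3. The 8 core histone genes were not called, from HTA2 at −0.29 to HTB2 at 0.12.

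Further single genes of transport and membranes differed. PHO89, a phosphate transporter, had 367, 354 and 508 scaled counts in gcn5, against 132, 147 and 101 in WT (1.69 ± 0.22). OPI3, of phosphatidylcholine synthesis, had 2443, 2105 and 2165 in gcn5, against 6921, 7714 and 6872 in WT (−1.68 ± 0.17). FET4, a low-affinity iron transporter, had 1393, 1622 and 2023 in gcn5, against 7234, 5943 and 5989 in WT (−1.93 ± 0.20). The groups did not overlap for these 3 genes. Of 7 genes of the zinc regulon 5 fell and 0 rose with either scaling, and all 7 fell without library 3. Zinc transporter ZRT1 spread widely, at 16781, 10270 and 36683 in gcn5, against 36663, 29858 and 33936 in WT, and library 3 was the only gcn5 library in or above the WT range. In ergosterol synthesis ERG25 rose, as above, and ERG9, squalene synthase, stood at −1.03 ± 0.18. HO, the mating-type endonuclease gene, had 1077, 1104 and 2150 in gcn5, against 668, 742 and 554 in WT (1.14 ± 0.22). Of 280 tested genes within 20 kb of a chromosome end 52 rose and 60 fell by spike-ins, 105 rose and 58 fell with TMM, and 42 rose and 105 fell without library 3. The largest rise among them, YHL050W-A, at 380, 311 and 257 in gcn5 against 38, 37 and 24 in WT, lies in repeated subtelomeric sequence, so its reads cannot be placed with certainty.

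The plot of lists by library shows all deletion strains. The gcn5 strain was also set directly against the spt3 and spt8 strains, which lack SAGA subunits linked to the TATA-binding protein. The gcn5 libraries share a name prefix with the spt8 libraries but not with the spt3 libraries. Where gcn5 stood differently against spt3 and spt8, strain and prefix therefore cannot be told apart. Against spt3, 638 genes (9.72%) were higher and 2449 (37.3%) lower in gcn5 by spike-ins, and 2009 (30.6%) and 2208 (33.6%) with TMM. Against spt8, 509 (7.76%) were higher and 2435 (37.1%) lower by spike-ins, and 2052 (31.3%) and 2039 (31.1%) with TMM. Of the 1993 genes lower in gcn5 than in WT, 1284 (64.4%) were also lower than in both other strains, and of the 691 higher, 196 (28.4%) were also higher than in both. With TMM these were 1252 of 2189 (57.2%) and 1073 of 2241 (47.9%). The median of all genes in the spike-in fits was −0.31 against spt3 and −0.30 against spt8, and TMM shifted it by 0.29 and 0.31. Without gcn5 library 3 the spike-in fits had 578 higher (8.79%) and 4224 lower (64.3%) against spt3, and 433 higher (6.59%) and 4254 lower (64.7%) against spt8. Without spt3 library 1, 1582 were lower than in spt3.

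The a-specific and pheromone-response genes were lower in gcn5 than in either strain. Of the 7 a-specific genes 6 were lower than in spt3 and 6 than in spt8, and 0 were higher. With TMM 5 were lower and 1 higher in each comparison, and without library 3 6 were lower and 0 higher in each. FAR1 averaged 2676 ± 1016 scaled counts in gcn5, 16179 ± 3370 in spt3, 14596 ± 810 in spt8 and 17348 ± 2237 in WT (SD, n = 3 each). The fall of gcn5 was −2.60 against spt3 (adjusted p = 1.43e-12) and −2.45 against spt8 (adjusted p = 7.65e-12). ASG7 averaged 342.0 ± 69.3 in gcn5, 1673 ± 95.5 in spt3, 2111 ± 76.9 in spt8 and 3504 ± 509 in WT. Among pheromone-response genes 15 of 25 were lower and 1 higher than in spt3, and 14 lower and 0 higher than in spt8. With TMM these were 15 lower and 5 higher, and 13 lower and 5 higher. Without library 3 they were 21 lower and 0 higher than in spt3, and 19 lower and 0 higher than in spt8. AFB1, YEA4, FET4 and FMP46 were among the 5 largest falls against each strain, with FMP46 at −2.86 against spt3 and −3.10 against spt8. FMP46 averaged 279.4 ± 121 in gcn5, 2032 ± 143 in spt3, 2387 ± 164 in spt8 and 2380 ± 154 in WT. FET4 stood at −2.87 against spt3, and it averaged 1679 ± 319 in gcn5, 12273 ± 1758 in spt3, 11652 ± 212 in spt8 and 6389 ± 732 in WT.

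Stress genes were mostly higher in gcn5 than in spt3, and mixed against spt8. They were higher than in spt3 for 17 of 26 members and lower for 2, with a median of 0.67. Against spt8 9 were higher and 9 lower (median −0.13). With TMM 20 were higher and 2 lower than in spt3, and 12 higher and 9 lower than in spt8 (median 0.19). Without library 3, 15 were higher and 6 lower than in spt3, and 8 higher and 13 lower than in spt8. GPH1 averaged 8676 ± 3082 in gcn5, 2680 ± 354 in spt3, 5771 ± 1427 in spt8 and 31649 ± 5163 in WT, so it was 1.69 higher in gcn5 than in spt3 (adjusted p = 1.5e-08). GSY1 did not pass the test against spt3 (−0.14, adjusted p = 0.561) and was lower than in spt8 (−1.58, adjusted p = 7.55e-08). Hexose transporters and sensors were higher in gcn5 than in spt3 for 9 of 14 members and lower for 2, and 8 were higher and 1 lower than in spt8. With TMM these were 11 higher and 1 lower, and 9 higher and 1 lower. Without library 3 they were 9 higher and 3 lower than in spt3, and 7 higher and 4 lower than in spt8. HXT2 averaged 2200 ± 347 in gcn5, 641.2 ± 160 in spt3, 527.7 ± 65.2 in spt8 and 880.4 ± 124 in WT. TIR3 and YAT1 were among the largest rises against both strains, at 2.89 and 2.87 against spt3. NCA3 and FMP48, mitochondrial protein genes, were also among the 5 largest rises against each strain but were not called against WT. FMP48 averaged 5734 ± 2092 in gcn5, 580.7 ± 77.8 in spt3, 886.3 ± 94.3 in spt8 and 4338 ± 962 in WT.

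Ribosome biogenesis genes, higher in gcn5 than in WT, stood differently against spt3 and spt8. By spike-ins 0 of 59 were higher and 19 lower than in spt3, and 11 were higher and 4 lower than in spt8. With TMM 13 were higher and 16 lower than in spt3, and 50 were higher and 2 lower than in spt8. Without library 3 and by spike-ins, 0 were higher and 49 lower than in spt3, and 6 higher and 13 lower than in spt8. Of all genes 37.3% were lower than in spt3 by spike-ins, and 64.3% without library 3. The list's median against spt3 was −0.31 by spike-ins, −0.01 with TMM and −0.57 without library 3. All genes stood close to these, at −0.31, −0.02 and −0.53. Against spt8 the list's median was 0.24 by spike-ins and 0.53 with TMM, where all genes stood at −0.30 and 0.01. LTV1 averaged 2273 ± 857 in gcn5, 2645 ± 634 in spt3, 1328 ± 215 in spt8 and 671.8 ± 123 in WT. Of the ribosomal protein genes 57 of 137 were lower and 0 higher than in spt3 by spike-ins, and with TMM 40 were lower and 27 higher. Of all genes 37.3% were lower than in spt3 by spike-ins and 33.6% with TMM. The list's medians against spt3, −0.35 by spike-ins and −0.04 with TMM, were near the −0.31 and −0.02 of all genes. Against spt8 90 of the 137 were lower and 0 higher, and with TMM 58 lower and 13 higher. The list's medians there were −0.47 by spike-ins and −0.13 with TMM, where all genes stood at −0.30 and 0.01. Without library 3, 95 of these genes were lower than in spt3 and 113 than in spt8, and 0 were higher. The shares of all genes lower in those fits were 64.3% and 64.7%. RPL43A averaged 688.8 ± 179 in gcn5, 3267 ± 69.0 in spt3, 3144 ± 123 in spt8 and 3194 ± 54.6 in WT. In the arginine pathway ARG3 was 1.59 higher in gcn5 than in spt3 (adjusted p = 1.86e-09) and 1.11 higher than in spt8 (adjusted p = 2.29e-06). It averaged 33123 ± 5849 in gcn5, 11000 ± 1438 in spt3, 15298 ± 1212 in spt8 and 21807 ± 1324 in WT. ARG4 was lower in gcn5 than in both, at −0.62 against spt3 and −0.61 against spt8. YIH1 averaged 299.0 ± 15.7 in gcn5, 1667 ± 92.3 in spt3, 1295 ± 147 in spt8 and 1002 ± 16 in WT.

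**Figure D5:**
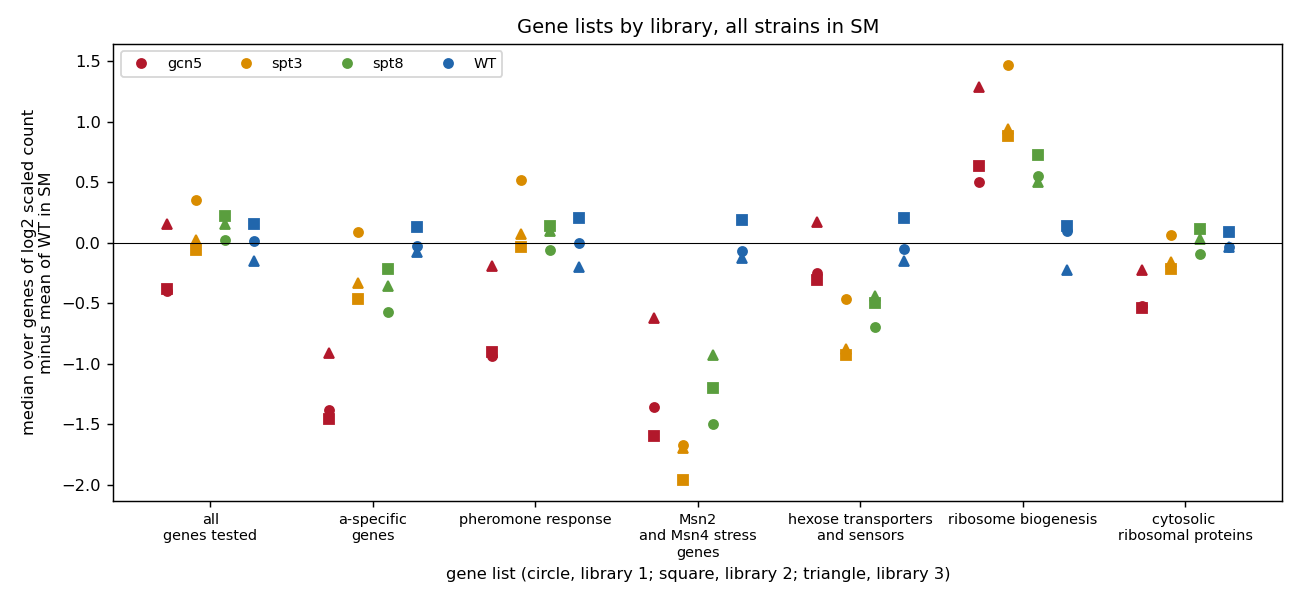
Median over the genes of each list of the log2 spike-in-scaled count minus the mean of WT in SM (vertical axis), for each library of gcn5, spt3, spt8 and WT in SM. The a-specific list lies at −1.38, −1.46 and −0.91 in gcn5 and between −0.57 and 0.09 in spt3 and spt8, the stress list is below WT in all 3 deletion strains, and gcn5 library 3 (triangle) is the highest gcn5 library in every list shown.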

How the data were processed

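RNA of 15 yeast libraries was sequenced, and the authors deposited 1 table of whole-number counts per feature for 6692 yeast features and 92 ERCC spike-ins. Per the submitters' processing notes, the genome build was sacCer3 and the tools were STAR, SAMtools and DESeq2, with no version or order given. All spike-in counts were even numbers, against 50.48% of yeast counts, and why was not given in the sources used here. Size factors were medians of ratios over the 74 spike-ins counted in every library. After filterByExpr, 6562 features were tested with edgeR 4.0.16 quasi-likelihood (R 4.3.3) in 1 model of 5 groups of 3 libraries, and genes under a Benjamini-Hochberg adjusted p of 0.05 were called. At 24.8 to 45.7 M yeast counts per library, counting error bears mainly on low genes.

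Alternatives were TMM, summed spike-ins, DESeq2 1.42.0 with either scaling, no filter, 2 groups, a replicate block and leaving out each library. Removal of length and GC trends (loess, span 0.4) and TMM combined with other settings were chosen after seeing the data. The genes and 55 lists were chosen with earlier results of these data known. Genes named are the deleted genes, GCN4, the neighbours of GCN5, the 10 largest rises and falls with at least 10 CPM called by both scalings with groups apart, the 5 largest of each kind against spt3 and spt8, and up to 4 called members of a list (any member of a list of 12 or fewer). Of the feature IDs, 6008 matched RefSeq R64, from which promoters were read. The edgeR step with TMM was tested on simulated counts with known changes. The fit with spike-in scaling and the other steps were not tested in this way.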

Additional observations from a re-analysis of the deposited data

How the results depend on the processing

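None of the 108 genes named and tested reversed direction as a called value under the 16 settings run, and of 93 called genes 78 kept their call in all of them. Counts of higher genes rested on the scaling. Against WT, 691 genes were higher by spike-ins, 2241 with TMM and 2253 with DESeq2's own size factors. Against spt3, 638 were higher by spike-ins, 2009 with TMM and 2189 with DESeq2's own factors. Against spt8, 509 were higher by spike-ins, 2052 with TMM and 2057 with DESeq2's own factors. With TMM and only the 2 groups compared, 1989 were higher than in WT, 1850 than in spt3 and 1873 than in spt8. With spike-ins and only the 2 groups, 1383 were lower than in spt3. Leaving out 1 library gave 443 to 866 higher and 1458 to 3438 lower than in WT, 491 to 720 higher and 1582 to 4224 lower than in spt3, and 362 to 579 higher and 1634 to 4254 lower than in spt8. With TMM the same range against WT was 2008 to 2209 higher and 2047 to 2228 lower. Apart from these settings, the cause was not tested.

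Groups share replicate numbers in the labels, but same-numbered libraries did not all deviate together. Their correlations were −0.373 to −0.164 between gcn5 and WT, −0.194 to 0.228 between gcn5 and spt3, and −0.328 to 0.091 between gcn5 and spt8. Differently numbered libraries gave −0.14 to 0.276, −0.266 to 0.297 and −0.141 to 0.302. Deviations were taken from means of 3 libraries, so these values cannot decide whether same-numbered libraries were handled together. The labels name no tie between them, and the numbers were not taken as pairing. With the replicate block, 606 genes were higher and 1832 lower than in WT, 579 and 2244 than in spt3, and 461 and 2210 than in spt8. With TMM and the block these were 2170 and 2149, 1964 and 2157, and 1984 and 1988.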
